A study of Homo sapiens with 32 samples.

Results

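K-562 cells that had been made resistant to nilotinib were compared with K-562 cells that had been made resistant to a high dose of imatinib. The nilotinib side was 2 lines raised by stepwise exposure to 0.1 µM nilotinib, and the imatinib side was 2 lines raised by stepwise exposure to 2 µM imatinib. Each line was measured on 4 technical arrays, so the comparison used 16 of the 32 arrays of the series. The other 16 arrays, from naive K-562 cells (sets S and K) and from 2 lines resistant to 0.5 µM imatinib, entered only the shared estimate of spread and the placement of each level relative to untreated cells. All groups share the K-562 background, an established line from a patient in blast crisis of chronic myeloid leukaemia, and the labels name no genetic change in any group. The 4 arrays of a line were averaged, and a gene was kept where both lines of one side lay above both lines of the other. The selecting doses differ, so drug, dose and the history of each line cannot be told apart. The labels call the lines biological replicates and do not say whether any of them share a history. The growth medium is described for every sample without either drug, so exposure at harvest is not known. The arrays carry 53617 features, of which 16098 had 1 gene symbol and gave 14884 genes; where a gene had several features, the one with the highest mean stood for it.

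Chronic myeloid leukaemia is driven by BCR-ABL, a fusion tyrosine kinase that signals through the RAS to MAPK route, STAT5 and PI3 kinase and keeps leukaemic cells dividing and alive. Imatinib binds the inactive form of the ABL kinase domain. Nilotinib was built on the imatinib scaffold, with a different end group in place of the methylpiperazine ring, and binds the same pocket more tightly; both drugs also inhibit KIT, the PDGF receptors and the discoidin domain receptors. Resistance can arise through changes in the kinase itself, through more fusion gene, through drug transport, or through other survival signals.

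Arrays of one line agreed closely, with correlations between 0.977 and 0.991 over all genes. Array medians lay between 5.85 and 6.01 on the log2 scale. Of the K-562 markers GATA1, TAL1, LMO2, GFI1B and BCR, 5 of 12 listed markers that had a named feature, every one stood at or above the 71.9 percentile of gene levels. Of the 7 measured granulocyte and monocyte markers, the mean level was 6.35 and 5.95 on the imatinib side and 6.05 and 6.42 on the nilotinib side, with LYZ and SPI1 high in imatinib line 1 and nilotinib line 2. The mean of the 4 measured epithelial and fibroblast markers was 6.92 and 7.29 against 6.89 and 7.54. EPCAM was at 5.86 and 7.87 against 5.97 and 8.60, and thus higher in line 2 of each side. The others differed less, with KRT8 at 7.8 and 7.5 against 7.7 and 7.7, KRT18 at 9.8 and 9.6 against 9.7 and 9.6, and DCN at 4.1 and 4.2 against 4.2 and 4.3. The 1 measured lymphoid marker, NKG7, was at 6.40 and 6.54 against 6.37 and 6.42. The mean of the 4 megakaryocyte markers was 6.10 and 6.04 against 5.82 and 5.88. A technical axis, the main direction along which arrays of the same line differed, held 16.8% of the variance within lines, and its mean was 21.19 and 12.28 in the nilotinib lines against -2.13 and 2.73 in the imatinib lines; its part in the results was not tested beyond the values without it that are given below.

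No gene passed the test of nilotinib against high imatinib. The limma fit on the 8 set means called 0 of 14884 genes (0%) at an adjusted p under 0.05, the smallest adjusted p was 0.744, and 943 genes had an unadjusted p under 0.05. Of these, 564 were higher in the nilotinib lines (3.79%) and 379 were lower (2.55%). With 2 lines against 2 an exact permutation test of a single gene cannot go below 0.333, so the p-values given here rest on the spread shared over genes and groups. They measure only the spread within the groups of these 8 sets, which include the naive sets and the 0.5 µM imatinib lines. With only the compared lines in the fit, 493 genes had an unadjusted limma p under 0.05. Both nilotinib lines lay above both imatinib lines for 2040 genes (13.7%) and below both for 3503 genes (23.5%). Most of these gaps were narrow, with a median of 0.096 on the log2 scale between the nearest lines. A gap of at least 0.5 was found for 83 genes that were higher and 25 that were lower in the nilotinib lines, and a gap of at least 1 for 11 genes.

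Lines of one side were about as far from each other as from the other side. The root mean square distance over genes was 0.477 between the nilotinib lines and 0.534 between the imatinib lines. It was smaller between the naive sets (0.257) and between the 0.5 µM imatinib lines (0.312), so the shared spread, and each SE from it, can be too small for the compared lines. Across the sides it was 0.540 for nilotinib line 1 against imatinib line 1, 0.468 against imatinib line 2, 0.403 for nilotinib line 2 against imatinib line 1 and 0.438 against imatinib line 2. Imatinib line 2 lay 0.343 and 0.288 from the 0.5 µM imatinib lines, nearer than to imatinib line 1. Whether the 4 imatinib lines count as separate cases was not tested. A fit to all 32 arrays with the set as a random block, which takes 1 correlation of 0.435 between arrays of a set for every gene, called 162 genes higher (1.09%) and 39 lower (0.262%). Tested line by line against the spread between arrays, 262 genes were higher (1.76%) and 67 lower (0.45%) in each of the 4 pairs of lines. The share of genes on each side moved with scaling: aligning array medians gave 20.1% higher and 14.2% lower, and restricting the count to the 8931 brighter genes, those above the 40th percentile of level, gave 17.9% higher and 16.1% lower. The lean towards lower values among all genes was therefore not kept under every scaling.

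DDX60L had the widest gap of all genes. It encodes a helicase that is induced by interferon. Its mean log2 signal was 4.93 and 5.00 on the imatinib side and 6.76 and 7.27 on the nilotinib side, a difference of 2.05 ± 0.26 (SE) or 4.13-fold (adjusted p = 0.744 by limma). Single arrays ran from 4.77 to 5.20 on the imatinib side and from 6.58 to 7.50 on the nilotinib side, with no overlap. The naive sets lay between the sides, at 5.66 and 5.77. SAMD9, an interferon-inducible growth-restraining factor, was at 6.65 and 5.65 on the imatinib side and 7.68 and 7.83 on the nilotinib side, 1.61 ± 0.33 higher, with naive cells at 5.55 and 5.81. For both genes both nilotinib lines were above both naive sets. The stretches of 250 bases before the RefSeq start sites of these genes are shown because both hold the core of the interferon-stimulated response element, GAAA, any 2 bases and GAAA (searched on both strands), which is printed in capitals. They lie at chr4:168480493-168480742 and chr7:93117980-93118229 of GRCh38.p14, both on the minus strand.
DDX60L: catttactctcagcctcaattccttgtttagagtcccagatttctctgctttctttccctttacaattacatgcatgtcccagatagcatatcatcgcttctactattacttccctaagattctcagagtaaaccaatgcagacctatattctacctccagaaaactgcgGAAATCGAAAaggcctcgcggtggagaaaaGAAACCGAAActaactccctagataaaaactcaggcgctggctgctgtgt
SAMD9: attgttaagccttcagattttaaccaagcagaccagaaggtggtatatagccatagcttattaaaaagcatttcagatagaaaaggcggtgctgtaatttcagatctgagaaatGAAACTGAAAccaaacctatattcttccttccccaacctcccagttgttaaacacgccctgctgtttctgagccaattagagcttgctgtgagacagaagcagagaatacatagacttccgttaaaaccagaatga
The matches begin 80 and 50 bases before the start of DDX60L and 136 bases before that of SAMD9. The motif was present in 1255 of all 35116 promoter windows of 300 bases (3.57%).

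The interferon list did not move one way as a whole. Of its 30 measured members, 7 (23.3%) had both nilotinib lines above both imatinib lines and 7 (23.3%) had both below, beside 13.7% and 23.5% of all genes, and the median difference was 0.14 against -0.03 over all genes. The members that were higher included SAMD9L, the neighbour and relative of SAMD9 (6.24 and 6.31 against 6.93 and 7.44, 0.91 ± 0.20 higher), DTX3L, a ubiquitin ligase of the interferon response (6.77 and 7.45 against 8.51 and 7.75, 1.02 ± 0.31 higher) and IFIT3, an interferon-induced antiviral protein (5.17 and 5.02 against 5.47 and 5.89, 0.58 ± 0.21 higher). These 3 were chosen after their values were seen. Each had an unadjusted limma p under 0.05, as did SAMD9. SAMD9 and SAMD9L begin a run of 4 neighbouring measured genes on chromosome 7 in which both nilotinib lines lay above both imatinib lines. The other members, HEPACAM2 and VPS50, are not among the measured members of the list, and the run's median difference was 1.12. The difference was 0.64 for DTX3L without nilotinib line 1 and 0.37 for IFIT3 without nilotinib line 2. The random block called SAMD9, SAMD9L, DTX3L, IFIH1 and BST2 higher and no member lower, beside 1.09% and 0.262% of all genes. The lines of the sides overlapped for BST2, whose difference of 1.56 was 0.46 without imatinib line 2. For IFIH1 the difference of 0.95 was 0.29 without imatinib line 1. None of the 7 lower members had an unadjusted p under 0.05, and their differences were small, as for ISG15, a ubiquitin-like modifier (7.55 and 7.60 against 7.43 and 7.02, -0.35 ± 0.27). The motif shown above was found before 4 of 6 higher members with a promoter window, before 4 of 5 lower members and before 8 of 12 overlapping members, so its presence did not separate them.

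Antigen presentation was the list with the largest share of higher members. Of its 29 listed members only 7 were measured. Their median difference was 0.43, with a range of 0.135 to 0.727 over the pairs of lines, and 6 of 7 lay higher in both nilotinib lines, beside 13.7% of all genes. ERAP2, a peptidase that trims peptides for MHC class I, was at 6.19 and 6.13 on the imatinib side and 6.89 and 6.56 on the nilotinib side, 0.57 ± 0.15 higher (adjusted p = 0.744 by limma). B2M, the light chain of MHC class I, was at 8.77 and 8.64 against 9.36 and 8.90, and CALR, a chaperone of the peptide loading complex, at 10.76 and 10.60 against 11.40 and 11.01. B2M and CALR were named after their values were seen. Naive cells held 6.22 and 6.42 for ERAP2, 8.71 and 8.90 for B2M and 11.31 and 11.50 for CALR. Without nilotinib line 1 the difference was 0.20 for B2M and 0.33 for CALR, from 0.43 and 0.53 with all lines. The median of this list was 0.36 with the technical axis removed. The class I heavy chain genes had no named feature and were not analysed here.

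Several of the widest gaps lay in genes of other kinds, and their position relative to naive cells differed. WT1, a zinc finger transcription factor whose transcript is followed as a marker of residual leukaemia, was at 6.20 and 6.09 on the imatinib side and 7.85 and 7.26 on the nilotinib side, 1.42 ± 0.27 higher (2.67-fold). Its naive level was 7.85 and 7.19, and the lines resistant to 0.5 µM imatinib held 6.18 and 6.08. For WT1, then, the nilotinib lines stood at the naive level and the 4 imatinib lines below it. ICAM1, an adhesion receptor for leukocyte integrins, was at 5.88 and 6.0 on the imatinib side and 9.06 and 7.07 on the nilotinib side, with naive cells at 8.72 and 8.25, so both imatinib lines were below every other set. The difference for ICAM1 was 2.12 ± 0.57 and rested unequally on the nilotinib lines, being 1.12 without line 1 and 3.12 without line 2. Of the 12 widest gaps in this direction, naive cells were nearer to the nilotinib lines for 7 genes (ZNF117, WT1, ICAM1, ITM2A, ABHD3, UBASH3B and ARHGAP42) and nearer to the imatinib lines for DDX60L, ZNF253, GALNT5, SAMD9 and TFR2.

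Among the rest of these 12, ZNF253, a zinc finger protein of chromosome 19, was at 5.79 and 5.94 in the imatinib lines against 7.46 and 7.42 in the nilotinib lines (1.58 ± 0.31). ZNF117, a zinc finger protein of chromosome 7, was at 6.58 and 6.92 against 8.04 and 9.25. GALNT5, which begins mucin-type O-glycosylation, had nearly equal nilotinib levels of 9.77 and 9.76 but imatinib levels of 8.72 and 6.26. The size of its difference, 2.27 ± 0.68, therefore depended on imatinib line 2, and was 1.04 without it. ABHD3, a phospholipase, was at 4.94 and 6.54 against 7.57 and 7.55 (1.02 higher without imatinib line 1 and 1.82 with it), and ITM2A, an integral membrane protein, at 7.54 and 6.49 against 8.60 and 8.87. UBASH3B, a tyrosine phosphatase, was at 6.0 and 5.68 against 7.08 and 7.0, and ARHGAP42 at 5.71 and 5.70 against 6.84 and 6.67. In each of the 12 genes the 8 nilotinib arrays lay above all 8 imatinib arrays. These genes were chosen for wide gaps between line means, and the arrays of a line are technical, so this adds no replication.

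**Figure D1:**
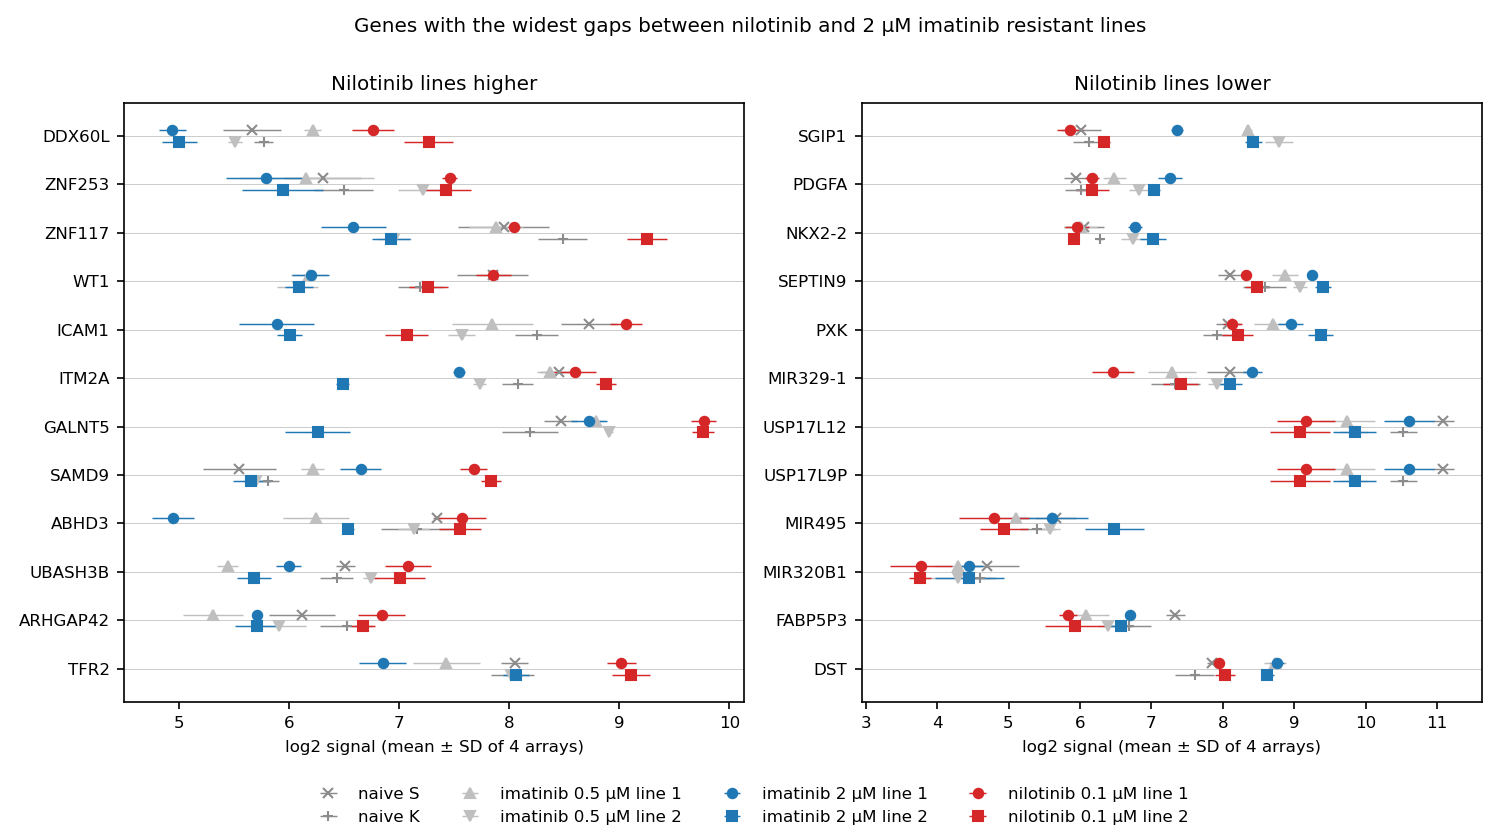
Log2 signal (x axis) of the 12 genes with the widest gap in each direction among those with an unadjusted p under 0.05, as the mean ± SD of the 4 technical arrays of each set. Red marks are the nilotinib lines, blue marks the 2 µM imatinib lines, grey marks the naive sets and the 0.5 µM imatinib lines; DDX60L is at 6.76 and 7.27 in red against 4.93 and 5.00 in blue.

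Some erythroid genes were higher in the nilotinib lines. K-562 cells carry an early erythroid programme, and GATA1, its master regulator, did not separate the sides (9.41 and 9.43 against 9.27 and 9.71). Of 20 measured erythroid genes, 6 were higher in both nilotinib lines (30.0%) and 1 was lower, beside 13.7% and 23.5% of all genes, with a median difference of 0.33 that ranged from -0.01 to 0.63 over the 4 pairs of lines and was 0.23 with the technical axis removed. TFR2, a transferrin receptor of erythroid cells that senses iron, was at 6.85 and 8.06 on the imatinib side and 9.02 and 9.10 on the nilotinib side, 1.61 ± 0.38 higher. RHAG, an ammonium transport glycoprotein of the red cell membrane, was at 7.94 and 9.69 against 10.46 and 9.97, and MYB, a progenitor transcription factor, at 8.59 and 7.09 against 9.15 and 9.10; both were named after their values were seen. For each of TFR2, RHAG and MYB the lowest level was in 1 imatinib line, imatinib line 1 for TFR2 and RHAG and imatinib line 2 for MYB, and without that line the difference was 1.00, 0.52 and 0.53. BLVRA, which reduces biliverdin after heme breakdown, was at 7.05 and 7.81 against 8.10 and 8.29 (0.77 ± 0.26, and 0.39 without imatinib line 1), and HMOX1, which opens the heme ring, was at 6.30 and 6.42 against 5.98 and 6.06.

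Among genes of division and protein synthesis, non-overlapping members were all higher in the nilotinib lines. Over all genes 13.7% were higher and 23.5% lower, and among brighter genes 17.9% were higher and 16.1% lower. The lists were not matched for level. Of 39 measured mitosis genes 10 (25.6%) were higher in both nilotinib lines and 0 lower, with a median difference of 0.14 that was -0.03 once the technical axis was removed. Of 44 measured cytosolic ribosomal protein genes 14 (31.8%) were higher and 0 lower, with a median of 0.14 that was 0.04 without the axis. ECT2, an exchange factor needed for cytokinesis, was at 7.33 and 7.58 on the imatinib side and 7.90 and 8.11 on the nilotinib side, and RPL36, a large subunit protein, at 7.82 and 7.47 against 8.55 and 8.18. In DNA replication 5 of 23 measured genes (21.7%) were higher and 0 lower, with a median of 0.27 that was 0.12 without the axis. Its widest gap was in CDT1, an origin licensing factor (8.52 and 9.07 against 9.24 and 9.50), whose difference of 0.58 was 0.41 without the axis and 0.30 without imatinib line 1. Because the medians of mitosis and ribosomal genes moved to about 0 without the technical axis, they cannot be told apart from the way the arrays differed.

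**Figure D2:**
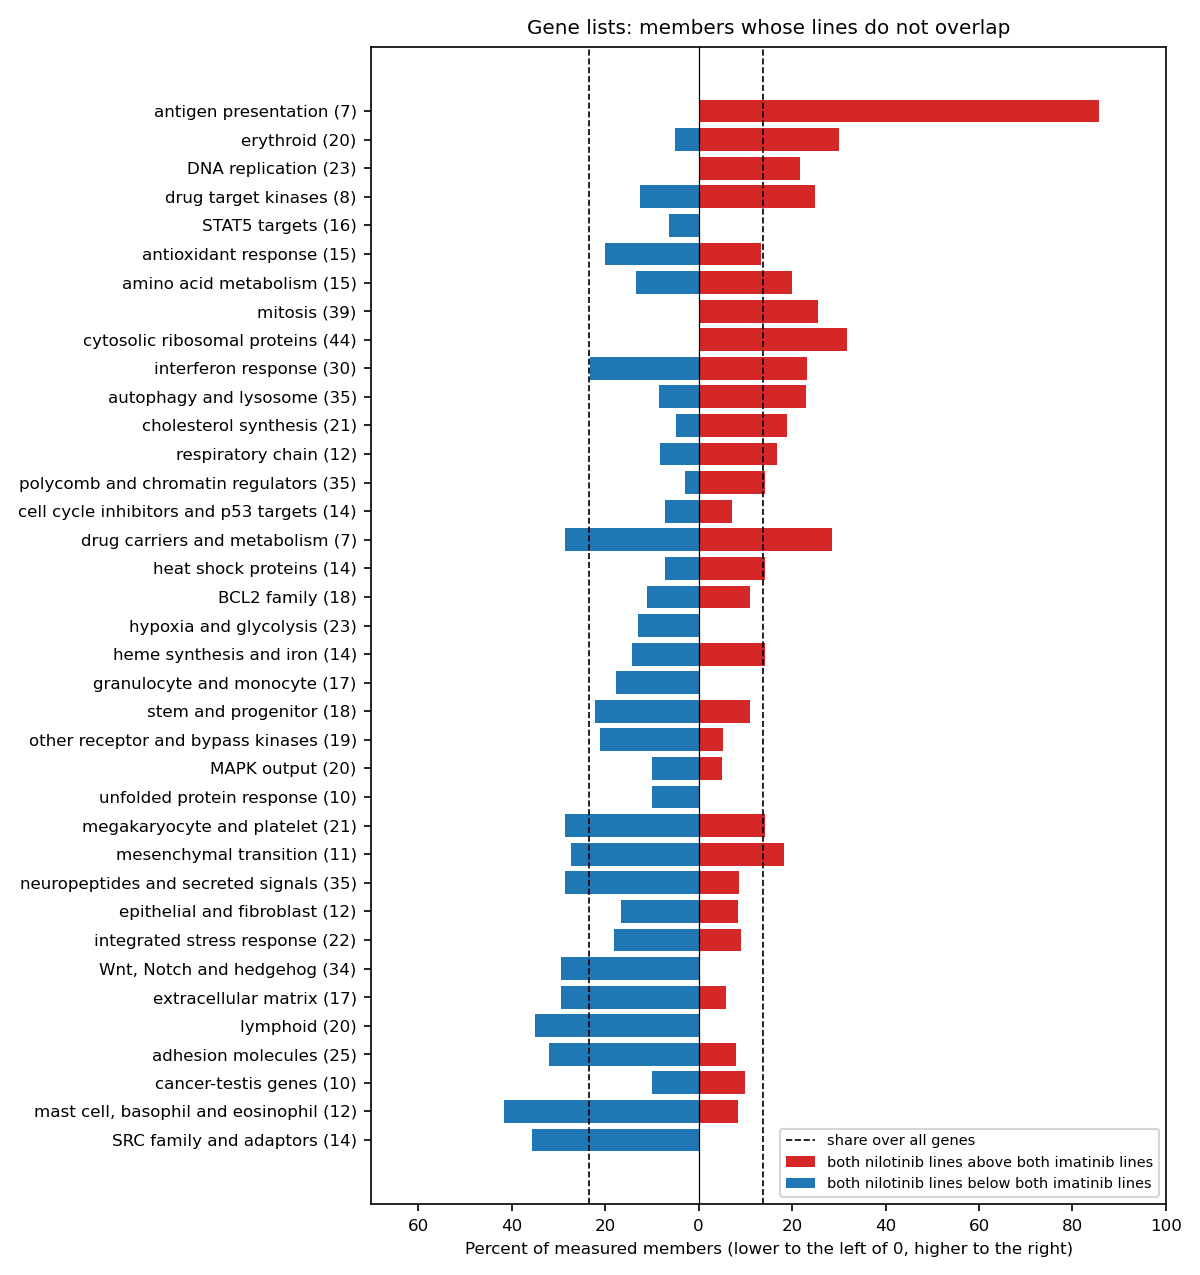
Share of the measured members of each gene list (y axis, number measured in parentheses; lists with at least 5) whose nilotinib lines both lay above (red, right) or both below (blue, left) the 2 µM imatinib lines, in percent. Dashed lines mark the shares over all genes, 13.7% higher and 23.5% lower; antigen presentation, with 6 of 7 members higher, reaches farthest.

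On the lower side SGIP1 had the widest gap. SGIP1 is an adaptor of clathrin-mediated endocytosis. Its mean log2 signal was 7.36 and 8.43 on the imatinib side and 5.86 and 6.34 on the nilotinib side, a difference of -1.79 ± 0.35, with single arrays from 7.25 to 8.53 against 5.61 to 6.45. Naive cells held 6.02 and 6.13 and the 0.5 µM imatinib lines 8.36 and 8.79, so SGIP1 was high in all 4 imatinib lines and near the naive level in the nilotinib lines. PDGFA, a ligand of PDGF receptors that both drugs inhibit, was at 7.26 and 7.03 against 6.17 and 6.17, a difference of -0.98 ± 0.16, with naive cells at 5.95 and 6.02. The lines resistant to 0.5 µM imatinib held 6.48 and 6.83, between the sides. SEPTIN9, a filament-forming GTPase of the cytoskeleton, was at 9.24 and 9.40 against 8.32 and 8.48, PXK, a kinase-like protein of endosomes, at 8.95 and 9.37 against 8.13 and 8.21, and DST, a linker of cytoskeletal filaments, at 8.76 and 8.63 against 7.95 and 8.03. For SGIP1, PDGFA, SEPTIN9, PXK, DST and NKX2-2 the naive mean was nearer to the nilotinib lines, and for the other 6 of the 12 widest gaps in this direction, MIR329-1, MIR495, MIR320B1, USP17L12, USP17L9P and FABP5P3, it was nearer to the imatinib lines. NKX2-2, a homeobox factor, differed by -0.96 ± 0.24 on the feature used and by -0.17 ± 0.13 on its second feature.

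Of the Wnt, Notch and hedgehog genes, 10 of 34 measured members (29.4%) were lower in both nilotinib lines and 0 higher, with a median of -0.08. That median was -0.06 with the technical axis removed. With array medians aligned it was -0.004, against 0.05 over all genes. Over all genes 23.5% were lower and 13.7% higher. FZD6, a Wnt receptor, was the member with the widest gap, at 8.38 and 8.33 on the imatinib side and 7.77 and 7.09 on the nilotinib side (-0.93 ± 0.24, and -0.58 without nilotinib line 2), with naive cells at 7.64 and 7.31. ATF5, a stress-response transcription factor, was at 7.59 and 7.85 against 7.11 and 7.12, below a naive level of 8.55 and 8.12. Of 20 measured lymphoid genes 7 (35.0%) were lower and 0 higher, beside the same 23.5% and 13.7% of all genes. Their median was -0.11, and 0.00 without the technical axis. The share of lower genes depended on level, being 16.1% among brighter genes, and these lists were not matched for level. The remaining members with wide gaps, USP17L9P, USP17L12 and FABP5P3, belong to families of near-identical copies; the first 2 had identical values on every array and count as 1 signal, at 10.61 and 9.85 on the imatinib side and 9.17 and 9.09 on the nilotinib side.

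The kinases that these drugs bind did not separate the sides by the test. Of 13 listed targets 8 had a named feature, ABL1 and the PDGF receptors not among them, and none had an unadjusted p under 0.05. BCR, the partner gene whose promoter drives the fusion, was at 7.82 and 8.20 on the imatinib side and 8.85 and 7.67 on the nilotinib side, so it was highest and lowest within the nilotinib side. KIT, the stem cell factor receptor, ran from 5.05 to 9.24 over the 4 lines, with 9.24 in nilotinib line 1, 7.54 in imatinib line 1, 5.38 in imatinib line 2 and 5.05 in nilotinib line 2; the 95% interval of its difference was -2.33 to 3.70. ABL2, the ABL relative, was at 8.45 and 7.55 against 7.59 and 7.87. Its difference was -0.27 ± 0.30 on the feature used and 0.05 ± 0.15 on its second feature. EPHB4, an ephrin receptor, was at 7.38 and 8.08 against 9.38 and 8.01 (0.96 ± 0.44), DDR1, a collagen receptor, at 7.43 and 7.51 against 7.67 and 7.66, and DDR2 at 6.30 and 6.26 against 5.77 and 6.21. CSF1R was at 6.17 and 6.11 against 6.0 and 6.26, and MAP3K20 at 8.42 and 8.39 against 8.55 and 8.70. These intervals were wide, and they do not show that the sides are alike. Among signals downstream, ETV1, an ETS factor that follows ERK activity, was at 6.22 and 5.88 against 6.94 and 6.89, the naive level being 6.96 and 6.94, and 1 of 20 measured MAPK output genes was higher and 2 lower (5.00% and 10.0%, beside 13.7% and 23.5% of all genes). BCL2L11, which encodes the death-promoting protein BIM, was at 6.68 and 6.96 against 8.33 and 7.29, 0.99 ± 0.34 higher (adjusted p = 0.744 by limma). Its difference was 0.46 without nilotinib line 1 and 1.51 without nilotinib line 2. Of 18 measured BCL2 family genes 2 were higher and 2 lower (11.1% each way, beside the same 13.7% and 23.5%).

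MicroRNA genes of the large imprinted cluster on chromosome 14 were lower in the nilotinib lines as a group. This cluster, from MIR379 to MIR656, was singled out after values were seen; it is transcribed from the maternal chromosome within the DLK1 to DIO3 domain. All 40 of its listed genes had a feature. In 24 of 40 both nilotinib lines lay below both imatinib lines, in 0 both lay above, and the median difference was -0.35. Among the 1048 other microRNA genes 27.7% were lower and 10.9% higher, with a median of -0.07. Among the brighter genes the contrast was narrower: 9 of 13 cluster genes were lower (69.2%, median -0.43), beside 150 of 308 other microRNA genes (48.7%, median -0.18). The cluster's median was -0.36 with the technical axis removed, -0.28 with array medians aligned, and between -0.49 and -0.17 over the 4 pairs of lines. Relative to naive cells the cluster's median was 0.06 and -0.18 on the imatinib side and -0.42 and -0.32 on the nilotinib side. In the cluster 11 genes had an unadjusted limma p under 0.05, all lower, and 27 of 40 lay at or below the 40th percentile of level. These features lie on hairpin genes, and whether they report mature microRNA, hairpin or host transcript is not known.

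The mature sequences of 5 cluster genes, chosen after their values were seen, are shown with the seed (bases 2 to 8), by which a microRNA recognises its targets, in capitals. They are taken from RefSeq on GRCh38.p14 for MIR329-1 and MIR329-2, which yield the same products, MIR495, MIR543 and MIR323A, all on the plus strand of chromosome 14.
hsa-miR-329-5p: gAGGUUUUcuggguuucuguuuc
hsa-miR-329-3p: aACACACCugguuaaccucuuu
hsa-miR-495-5p: gAAGUUGCccauguuauuuucg
hsa-miR-495-3p: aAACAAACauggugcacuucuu
hsa-miR-543: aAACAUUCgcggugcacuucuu
hsa-miR-323a-5p: aGGUGGUCcguggcgcguucgc
hsa-miR-323a-3p: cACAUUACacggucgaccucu
MIR329-1 (hsa-miR-329-3p at chr14:101026834-101026855) was at 8.41 and 8.10 on the imatinib side and 6.46 and 7.41 on the nilotinib side, -1.32 ± 0.39 (-0.84 without nilotinib line 1), with naive cells at 8.10 and 7.34. Its twin MIR329-2, which shares both seeds, was at 5.52 and 5.51 against 4.23 and 5.03 (-0.88, and -0.48 without nilotinib line 1). MIR495 (hsa-miR-495-3p at chr14:101033804-101033825) was at 5.61 and 6.48 against 4.80 and 4.93 (-1.18, and -0.74 without imatinib line 2), MIR543 at 6.59 and 6.98 against 5.80 and 6.23, and MIR323A at 5.56 and 5.65 against 4.79 and 5.00. The order of the lines differed between genes. That both nilotinib lines were below both imatinib lines in each of these 5 follows from how they were chosen. The 40 genes hold 69 mature names with 59 distinct seeds, and 12 seeds were shared by 2 or more genes. These counts come from the sequences alone and do not bear on the levels. Outside the cluster MIR320B1 on chromosome 1 was at 4.45 and 4.45 against 3.78 and 3.76. It lay at the 4.15 percentile of level, and its single arrays overlapped. They reached up to 4.38 in nilotinib line 1 and down to 4.07 in imatinib line 2.

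**Figure D3:**
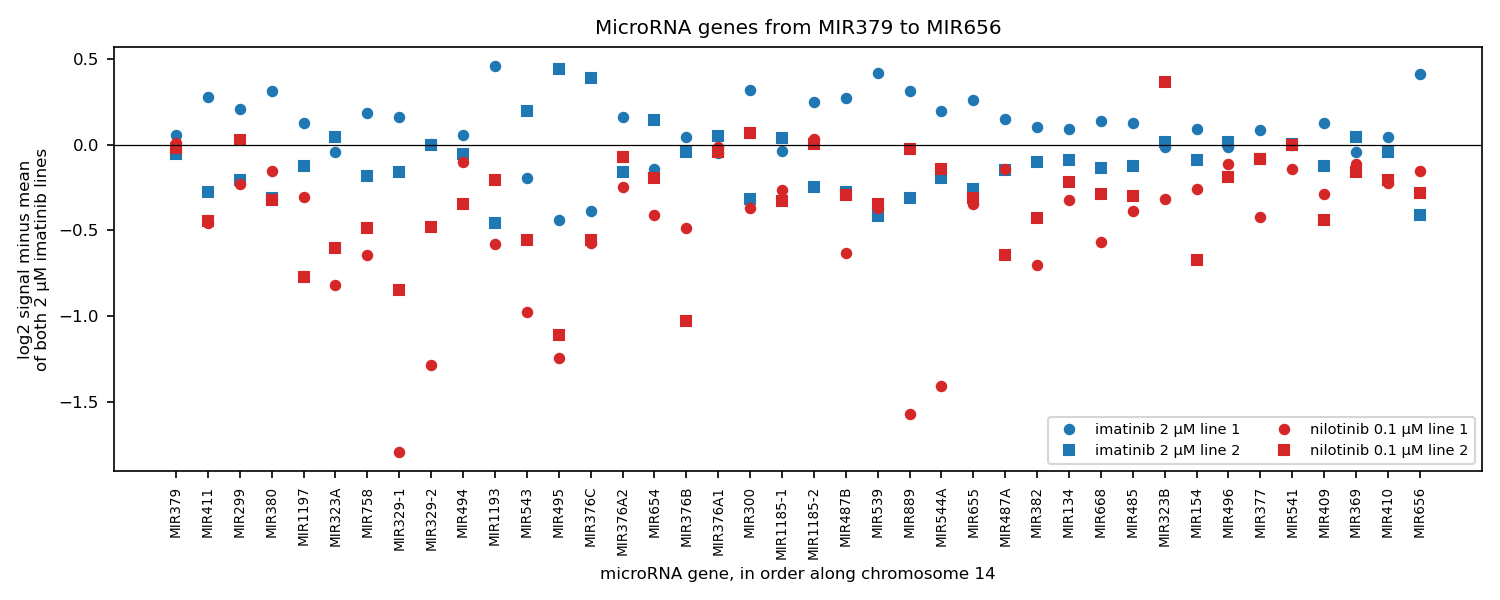
Log2 signal of the 40 microRNA genes from MIR379 to MIR656 (x axis, in order along chromosome 14), minus the mean of both 2 µM imatinib lines (y axis, log2). Red marks are the nilotinib lines and blue marks the imatinib lines, circles being line 1 and squares line 2; in 24 of 40 genes both red marks lie below both blue marks.

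Chromosome 7 stood out among the chromosomes, a pattern also examined after values were seen. Among its 440 brighter genes, 44.3% were higher in both nilotinib lines and 8.86% lower, beside 17.9% and 16.1% of all brighter genes. The median difference was 0.24 on chromosome 7 against 0.05 over all brighter genes, and lay between 0.18 and 0.27 in the 4 pairs of lines. Relative to naive cells the chromosome 7 median was 0.33 and 0.27 in the nilotinib lines and -0.01 and 0.01 in the imatinib lines, against 0.29 and 0.21 and 0.08 and 0.17 over all brighter genes. By these medians the nilotinib lines stood on chromosome 7 about where their other genes stood, and the imatinib lines lower than elsewhere. The 0.5 µM imatinib lines were at 0.11 and -0.07 on chromosome 7, against 0.17 and 0.15 over all brighter genes. The naive sets lay at -20.76 and -25.09 on the technical axis, and the medians relative to naive cells were not computed without it. In 11 of 11 consecutive groups of 40 genes along the chromosome, from the group that starts with PDGFA to the group that ends with VIPR2, the median difference was above 0, from 0.13 to 0.35. With the technical axis removed the share of higher genes was 33.2%, beside 10.4% of all brighter genes, and the chromosome 7 median was 0.12, beside -0.02. With array medians aligned the shares were 53.4% and 24.6%. Of the genes named above, ZNF117, SAMD9, SAMD9L, TFR2, ETV1, BLVRA, and EPHB4 lie on chromosome 7 with a higher mean in the nilotinib lines, and PDGFA and FABP5P3 lie there with lower values. INSIG1, also on chromosome 7 and a brake on cholesterol synthesis, was at 8.80 and 8.96 against 9.39 and 9.36.

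Chromosome 19 showed a smaller lean, with 27.4% of 725 brighter genes higher and 13.1% lower and a median of 0.14. With the technical axis removed its share of higher genes was 19.9% and its median 0.06. It was concentrated in the first 8 of 18 groups in gene order, from WASH5P to CEP89, where the median difference was between 0.16 and 0.30, while the later groups ran from -0.07 to 0.17. Chromosome 18 had a median of 0.29 over 131 brighter genes, 0.14 with the axis removed, but a range of -0.01 to 0.45 over the pairs of lines. Chromosome 1 lay the other way, with 6.89% of 915 brighter genes higher and 26.4% lower and a median of -0.08, which was -0.15 with the axis removed. Expression arrays carry no measure of gene copies, and copy number was not analysed here.

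**Figure D4:**
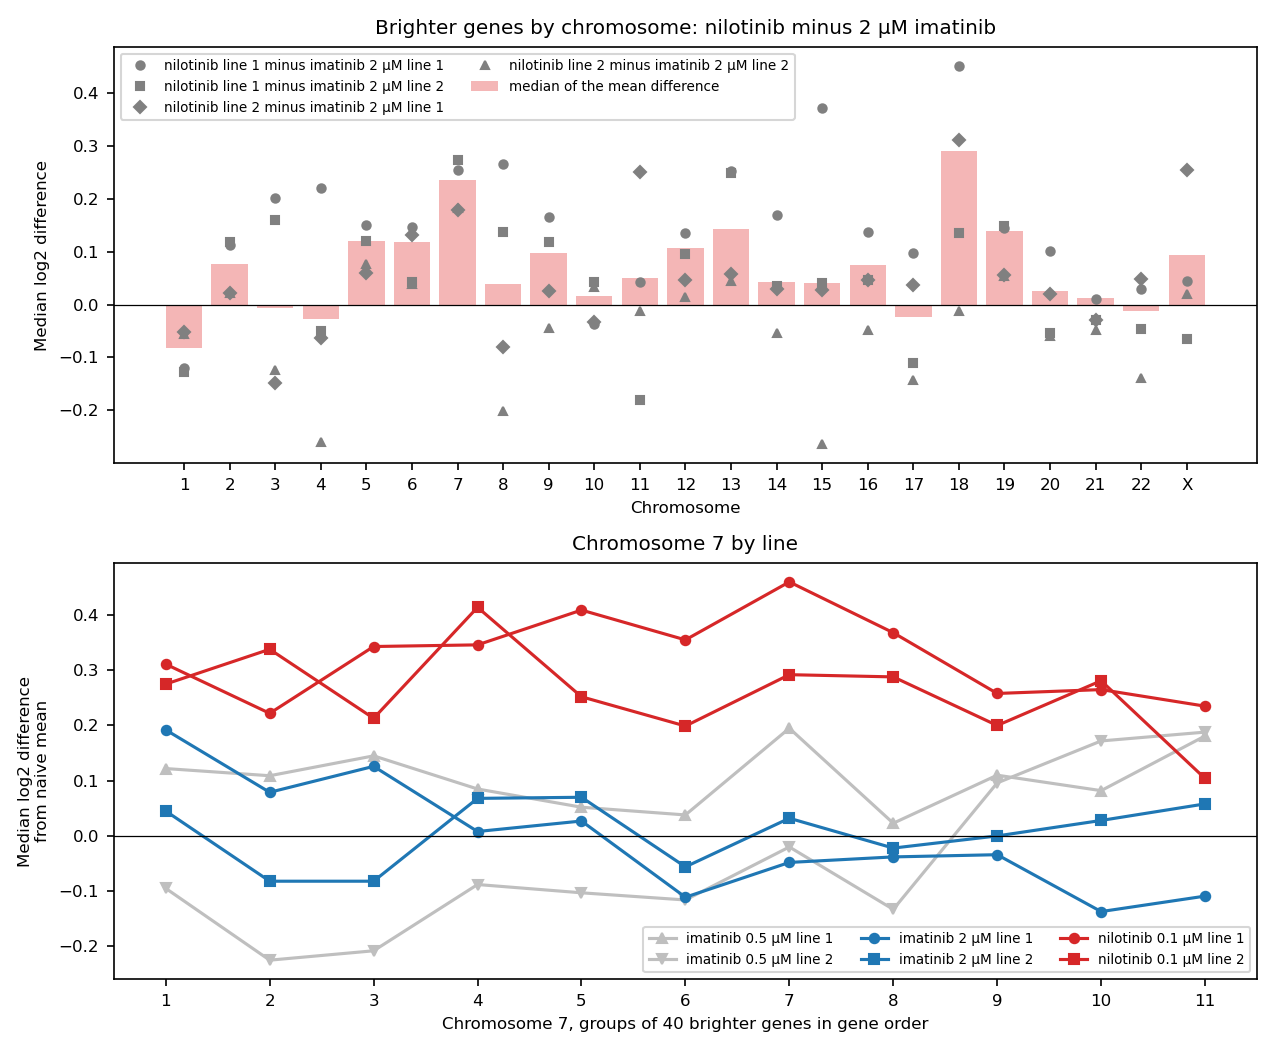
Top, median log2 difference (nilotinib minus 2 µM imatinib, y axis) of the brighter genes of each chromosome (x axis; chromosomes with at least 50 such genes), with bars for the mean of the lines and grey marks for each of the 4 pairs of lines. Bottom, median log2 difference of each resistant line from the naive mean (y axis) in 11 groups of 40 brighter genes along chromosome 7 (x axis); both red nilotinib lines stay above both blue imatinib lines in each group.

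The 2 nilotinib lines differed from each other in a run of neighbouring genes on chromosome 4, which was singled out after values were seen. Nilotinib line 1 exceeded the other 3 lines by at least 0.5 in 15 consecutive measured genes from HSD17B13 to TIGD2, and it exceeded every other set in 15 of 15. The difference between the nilotinib lines had a median of 3.48 over these genes and ranged from 0.77 to 4.27. HSD17B11, a steroid dehydrogenase of lipid droplets, was at 12.87 in nilotinib line 1, 9.82 in nilotinib line 2 and 9.80 and 9.49 in the imatinib lines. NUDT9, an ADP-ribose hydrolase, was at 11.76 against 7.50, 7.31 and 8.01, and HERC3, a ubiquitin ligase, at 11.33 against 7.38, 7.28 and 7.26. Genes normally restricted to bone and teeth were high there too, with DMP1 at 8.44 against 4.96, 4.72 and 4.89. The genes on either side did not: KLHL8 and GPRIN3 were at 7.11 and 5.17 in nilotinib line 1. In RefSeq the stretch between SPP1 and HERC6 also holds ABCG2, a drug efflux transporter for which imatinib and nilotinib are substrates; no feature was named for it here and its level was not analysed. HERC5 and HERC6 of the interferon list lie in this run and were at 8.98 and 9.53 in nilotinib line 1. HERC5 was also at 7.97 in imatinib line 2 and at 7.45 and 7.28 in the 0.5 µM imatinib lines, with naive cells at 5.55 and 5.59. Whether the levels of HERC5 and HERC6 go with the run or with that list was not tested. Of the 15 genes, HSD17B11, DMP1 and HERC3 are among the 2040 genes that were higher in both nilotinib lines, with a gap of at most 0.09; in the other 12 nilotinib line 2 lay level with or below an imatinib line.

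**Figure D5:**
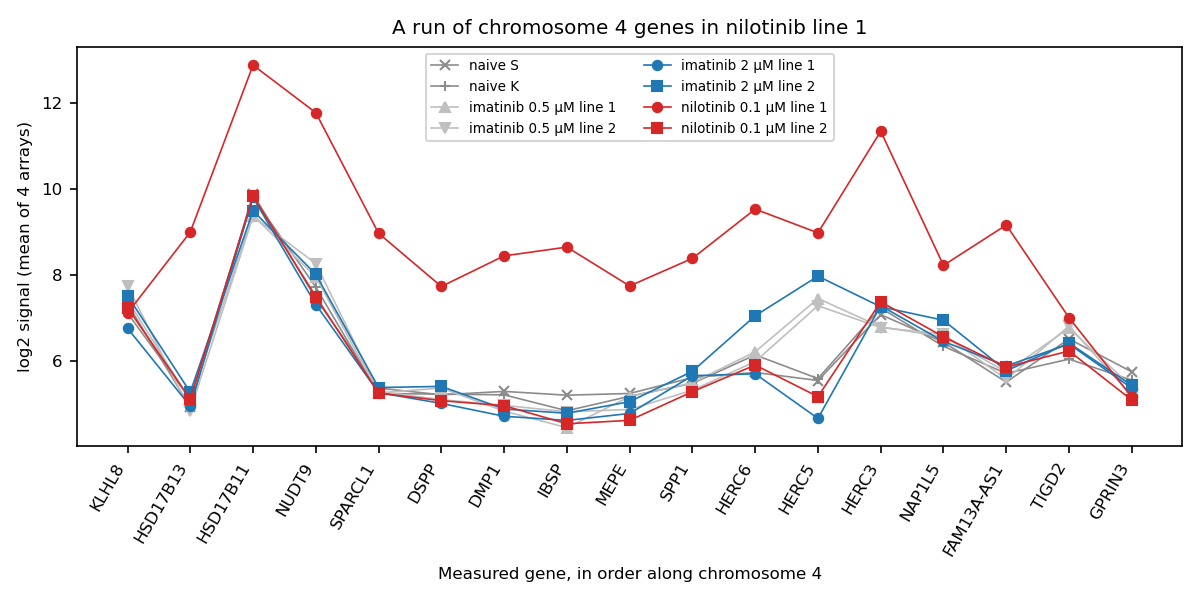
Log2 signal (y axis, mean of 4 arrays) of 17 measured genes in order along chromosome 4 (x axis), the run from HSD17B13 to TIGD2 and 1 gene on either side, in all 8 sets. The red circles of nilotinib line 1 lie above all other marks in the 15 genes of the run and join them at KLHL8 and GPRIN3.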

How the data were processed

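RNA (100 ng per array) was hybridised to whole-transcript arrays. The deposited values, made by the authors with Transcriptome Analysis Console 4.0 per the submitters' processing notes, were used as log2 signal. The log base was inferred from their range of 1.24 to 14.2, and background correction and summarisation are not given in the sources used here. Technical arrays were averaged per set, and the 8 set means were fitted with limma 3.58.1 (1 mean per group, Benjamini-Hochberg over all genes, threshold 0.05, 4 residual degrees of freedom). No filter on level was used in that fit. The script was tested on simulated data. Named were the 12 genes with the widest gap in each direction among non-overlapping genes with an unadjusted p under 0.05, the widest such member of each of 37 lists, and every measured drug target. The members and lists were chosen with earlier results of these data known. Line numbers were tested as pairs: deviations of same-numbered lines correlated at -0.201 (high imatinib and nilotinib), 0.188 (low imatinib and nilotinib) and 0.139 (low and high imatinib), so pairing was not borne out. The number of arrays limits the precision. Sequences came from RefSeq (GRCh38.p14).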

Additional observations from a re-analysis of the deposited data

Results flagged for a closer look

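In 10 of 208 groups of 4 technical arrays of the named genes, 1 array stood apart from the other 3 by Dixon's criterion; chance marks about 1 group in 20. In imatinib line 1, PDGFA had 1 array at 7.02 with the others between 7.32 and 7.37, and MIR320B1 had 1 at 4.73 with the others between 4.33 and 4.37. In imatinib line 2, THBS1 had 1 array at 7.73 (others 7.60 to 7.62) and EPHB4 1 at 8.30 (others 7.99 to 8.02). In nilotinib line 1, TIPARP had 1 array at 9.23 (others 9.08 to 9.10) and ZEB2 1 at 7.79 (others 7.87 to 7.88). In nilotinib line 2, PXK had 1 array at 8.53 (others 8.06 to 8.14), MIR329-1 1 at 7.04 (others 7.52 to 7.55), ERAP2 1 at 6.71 (others 6.5 to 6.53) and BCR 1 at 7.48 (others 7.71 to 7.75).

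Outside the named genes, the unnamed array feature 17093507 was at 9.68 and 9.40 in the nilotinib lines and 6.57 and 6.60 in the imatinib lines, a difference of 2.96 ± 0.15 (adjusted p = 0.00764 by limma over all 53617 features). Naive cells held 8.62 and 8.47 and the 0.5 µM imatinib lines 6.59 and 6.64, so it was highest in the nilotinib lines and lowest in all 4 imatinib lines. No gene is named for it in the tables used here.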

How the results depend on the processing

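The count of genes past the threshold in limma was 0 in the fit to 8 set means. It stayed 0 with only the compared lines, quantile normalization, aligned medians, the technical axis removed, the dimmest 40% left out, features averaged, medians of arrays and a trended prior. The replicate block over the 6 resistant lines gave 0 genes and the crossed replicate block, chosen after seeing the data, also gave 0; the pairing by number was not borne out. The count was 201 with the set as a random block, 2548 with 32 arrays as separate samples, which ignores that 4 arrays share a line, and 1 with every array feature. Leaving out 1 line gave between 6 and 35 genes: 25 without imatinib line 1, 16 without imatinib line 2, 6 without nilotinib line 1 and 35 without nilotinib line 2, of which 11 lie in the chromosome 4 run; each such fit assumes that the lone line varies like the other groups. The direction of the 24 genes with the widest gaps is fixed by how they were chosen in the fits that leave out a line or change only the error, so its being kept there is no sign of stability. Removing the technical axis left 10.6% of genes higher and 18.2% lower. Of the 40 cluster microRNA genes 27 were at or below the 40th percentile of level, and 37519 features without a gene symbol were used only in the test of every feature.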

Other observations

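In some genes the lines of one side differed widely from each other; these genes were chosen after their values were seen. SNAI2, a transcription factor of the mesenchymal transition, was at 11.47 in nilotinib line 1, 6.30 in nilotinib line 2 and 6.01 and 6.18 in the imatinib lines. AHR, the aryl hydrocarbon receptor, was at 10.69 in nilotinib line 1 and 6.63 in nilotinib line 2, against 7.40 and 5.57 in the imatinib lines and 10.34 and 9.57 in naive cells. TIPARP, a target of AHR, was at 9.12 and 8.10 against 7.91 and 7.30. SRGN, a proteoglycan core protein of blood cell granules, was at 8.92 in nilotinib line 2 and 5.70 in nilotinib line 1, against 5.78 and 5.64 in the imatinib lines and 7.58 and 7.69 in naive cells. HEPH, a copper-dependent iron oxidase, was at 9.47 and 10.26 in the nilotinib lines and 9.81 and 5.88 in the imatinib lines, so only imatinib line 2 was low among these 4 lines. VCAN, a matrix proteoglycan, was at 9.14 in imatinib line 2, against 5.44 in imatinib line 1 and 5.72 and 5.31 in the nilotinib lines. NMU, a neuropeptide, was at 10.83 and 10.82 in naive cells, 8.91 and 6.49 in the nilotinib lines and 6.24 and 6.23 in the imatinib lines, and thus lower than naive in all 4 lines.

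IL18R1 and IL18RAP, the neighbouring genes of the interleukin 18 receptor chains, were higher in both nilotinib lines. IL18R1 was at 6.84 and 6.72 against 6.07 and 5.70, and IL18RAP at 6.48 and 6.88 against 6.10 and 5.33. Naive cells held 6.84 and 6.92 for IL18R1 and 6.33 and 6.30 for IL18RAP. GAL, the neuropeptide galanin, was at 7.55 and 7.96 against 7.03 and 6.83, with naive cells at 8.35 and 7.97. Nilotinib line 1 also exceeded the other 3 lines in the 4 neighbouring genes DMXL2, SCG3, TMOD2 and TMOD3 of chromosome 15, and lay below them in 6 neighbouring GAGE genes of chromosome X; members of the GAGE family are near-identical copies, so these 6 are not separate signals.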
